A study of Mus musculus with 18 samples.

Results

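The genes of the cytosolic ribosomal proteins were followed in mouse oocytes with and without VPS34, before and after meiotic maturation. The 90 genes are those of 55291 in the deposited table whose symbol is Rpl or Rps followed by a digit, or Rplp0, Rplp1 or Rplp2, without symbols marked as pseudogenes or related sequences and without the Rps6k kinases and the Rps3a family. They comprise 43 proteins of the large subunit, 29 of the small subunit, the 3 proteins of the P stalk, 14 paralogs or retrocopies and Rps19bp1, which encodes a binding partner of RPS19 and not a ribosomal protein. The mouse annotation GENCODE M21 (build GRCm38) lists 84 of them as protein-coding and 5 as processed pseudogenes (Rpl32l, Rpl37rt, Rpl6l, Rps12l1 and Rps4l), and 1 symbol, Rps23rg1, had no entry there.

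All females were 5 weeks old and carried floxed Vps34 (Pik3c3), the gene of the class III phosphatidylinositol 3-kinase that starts autophagosome formation and endosome maturation. ZcKO females also carried Zp3-cre, whose zona pellucida promoter works in oocytes once they grow, so that the loss of VPS34 starts after the first stages of oocyte development and the follicle cells keep the gene. Control females had the floxed gene without Cre. ZcKO MII and control MII oocytes were ovulated eggs arrested at metaphase II, taken 14 h after the ovulatory hormone hCG. ZcKO GV and control GV oocytes were at the germinal vesicle stage, before meiosis resumes, and were taken 46 h after PMSG, which stimulates follicle growth. Each group had 3 libraries (n = 3 throughout), each made by Smart-seq2 from 5 pooled oocytes with ERCC spike-in RNAs. The other 6 samples, of 2-cell embryos, were not analysed here.

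The column names of the count table mark the genotypes as C and T, letters that the sample titles do not use. C was read as control and T as ZcKO, and every genotype direction below rests on that reading. Pik3c3 stood at 5.36, 2.42 and 3.21 CPM (counts scaled to a common total of gene counts) in ZcKO MII libraries, against 10.6, 21.4 and 17.1 CPM in control MII libraries. It stood at 1.56, 1.65 and 2.67 CPM in ZcKO GV libraries, against 35.5, 28.8 and 25.8 CPM in control GV libraries. These values were known when the letters were read, so they are no independent check of the reading. Each library had counts for at least 11 of 12 oocyte markers. The libraries held 2609783 to 4696626 gene counts, of which 7512 to 60426 fell on the ribosomal protein genes.

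A cytosolic ribosome is built from ribosomal RNA and a single copy of nearly every ribosomal protein, and the mRNAs of these proteins are among the most abundant in growing cells. Most of them begin with a 5′ terminal oligopyrimidine (TOP) tract, a C followed by a run of C and T, through which mTORC1 and LARP1 control their translation and storage. A growing mouse oocyte accumulates ribosomes and mRNA, transcription stops by the end of growth, and during maturation many stored mRNAs are deadenylated and degraded while others receive longer poly(A) tails and are translated.

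Ribosomal protein mRNAs took a smaller share of the library at MII than at GV, in both genotypes. Their summed share of gene counts was 0.417%, 0.286% and 0.285% in ZcKO MII libraries, against 1.51%, 1.41% and 1.08% in ZcKO GV libraries. In control MII libraries it was 0.205%, 0.352% and 0.249%, against 1.31%, 1.59% and 1.26% in control GV libraries. No MII library overlapped any GV library. The mean share was 0.329% ± 0.0758 in ZcKO MII and 1.33% ± 0.226 in ZcKO GV (SD), 4.04-fold lower at MII, and 0.269% ± 0.0754 in control MII and 1.39% ± 0.181 in control GV, 5.17-fold lower. With 3 libraries a group, the smallest two-sided p that an exact permutation test can reach is 0.1.

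**Figure D1:**
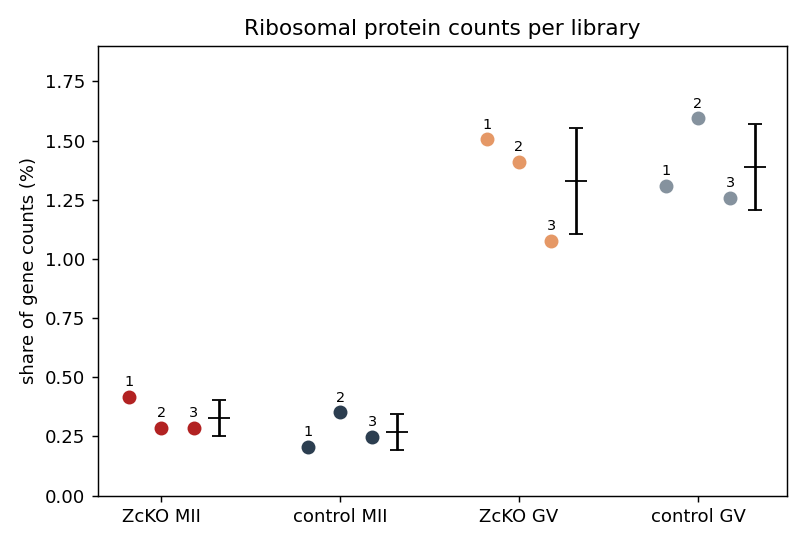
Summed share of gene counts (percent, y axis) of the 90 ribosomal protein genes in each library, by group, with a point for each replicate and bars for the mean and 1 SD of 3 libraries. MII libraries lie between 0.205% and 0.417% and GV libraries between 1.08% and 1.59%, and within each stage ZcKO and control overlap.

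Set against the spike-ins instead of the library total, the difference between stages was wider. There were 8.45, 6.32 and 4.29 ribosomal protein counts per 1000 ERCC counts in ZcKO MII libraries, against 197, 105 and 67.6 in ZcKO GV libraries, a mean 19.4-fold lower. Control MII libraries had 3.79, 8.13 and 6.02 per 1000 ERCC counts, against 57, 112 and 109 in control GV libraries, a mean 15.5-fold lower. Counts of all genes together moved the same way, with 1.51 to 2.42 gene counts per ERCC count in MII libraries and 4.35 to 13.1 in GV libraries. These ratios, and all values with ERCC totals below, assume equal amounts and recovery of spike-in RNA in every library, which was not tested. Within groups the gene counts per ERCC count ran from 6.29 to 13.1 in ZcKO GV and from 4.35 to 8.7 in control GV. They ran from 1.51 to 2.21 in ZcKO MII and from 1.85 to 2.42 in control MII. All libraries have the same stated number of oocytes, but the counts alone cannot tell fewer cells from less RNA per cell. Because Smart-seq2 primes on poly(A), fewer mRNA molecules and shorter tails cannot be told apart either. Summed CPM of 24 cumulus and granulosa markers was higher at MII than at GV, unlike the ribosomal protein counts. It was 1046 to 2351 in ZcKO MII and 1346 to 1624 in control MII libraries. At GV it was 371 to 624 in ZcKO and 453 to 554 in control libraries. The part of cumulus and granulosa cells in the ribosomal protein counts was not tested. Serpine2 was the highest marker in every library. Without it the sum was 248 to 1251 in ZcKO MII, 271 to 518 in control MII, 95.6 to 126 in ZcKO GV and 133 to 162 in control GV. Some markers were lower at MII instead, among them Nr5a2 in both genotypes and Inhbb and Hsd17b1 in control. Of these markers Amh was at 0 in all MII libraries, Fshr in ZcKO MII, Amhr2 in control MII, Tnfaip6 and Ptx3 in all GV libraries and Foxl2 in ZcKO GV.

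The make-up of the ribosomal protein counts differed between stages as well. Rps27l, the paralog of Rps27 known as a p53 target, held 10.2%, 15.8% and 25% of them in ZcKO MII libraries, against 1.22%, 1.52% and 1.78% in ZcKO GV libraries. In control MII libraries it held 20.2%, 10.8% and 14.9%, against 1.62%, 1.27% and 1.78% in control GV libraries. Rps27l was the member with the most counts in all 6 MII libraries, and Rpl5, a large subunit protein of the 5S particle that also binds MDM2, in all 6 GV libraries. Proteins of the large subunit together held 37.3% ± 5.72 in ZcKO MII and 51% ± 0.0598 in ZcKO GV, and 36% ± 4.86 in control MII and 51.2% ± 0.438 in control GV (SD). Proteins of the small subunit held 33% ± 2.81 in ZcKO MII and 33.7% ± 0.675 in ZcKO GV, and 33.8% ± 0.667 in control MII and 33.9% ± 0.742 in control GV, a difference within the spread between libraries. This steady sum does not mean that each small subunit protein kept its share. Rps15a alone held 5.56% ± 0.736 in ZcKO MII and 1.45% ± 0.338 in ZcKO GV. In control it held 6.13% ± 0.157 at MII and 1.6% ± 0.192 at GV.

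Levels of different members were compared as CPM per kb of transcript. By the mean over all 12 libraries the highest were Rps27l at 664 CPM per kb, Rpl37rt, a transcribed retrocopy of Rpl37, at 521 and Rpl32, a large subunit protein, at 415. Rps27l stood at a level of 1060 CPM per kb in ZcKO MII and 777 in control MII, against 393 in ZcKO GV and 426 in control GV. Also high at MII were Rps15a (280 CPM per kb in ZcKO, 257 in control) and Rpl37rt (248 and 224). At GV the order was led by Rpl37rt (789 CPM per kb in ZcKO, 824 in control), with Rps13 (670 and 685), Rpl32 (662 and 772) and Rps29 (615 and 734) behind it. 

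Among the canonical proteins Rpl24, which forms a bridge to the small subunit, had the lowest mean level, 0.171 CPM per kb, before Rps10, on the head of the small subunit, at 0.959 and Rpl13a, a large subunit protein also known from the GAIT complex, at 8.35. Their exons share strand and bases with other gene models: 47% of the exon bases of Rpl24 lie in Gm28037, and 35.4% of those of Rpl13a in Gm45713 or small RNA genes. Of the exon bases of Rps10, 28.7% lie in Gm15420 or the readthrough model RPS10-NUDT3 on either strand, and 20.6% share the strand. Their levels are therefore uncertain, since how reads in overlapping genes were counted is unknown here. Symbols marked as pseudogenes of Rps10 also held counts, 174 on Rps10-ps1 and 297 on Rps10-ps2 over the 12 libraries. Rps10 itself had at most 5 counts in any library. The lowest members of all were paralogs: Rps12l1 had no count in any library, and Rpl3l, the striated muscle paralog of Rpl3, had 1 count, in a control MII library. With Rpl32l, Rps23rg1, Rpl24 and Rps10 these are the 6 members with too few counts for any test, which left 84.

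**Figure D2:**
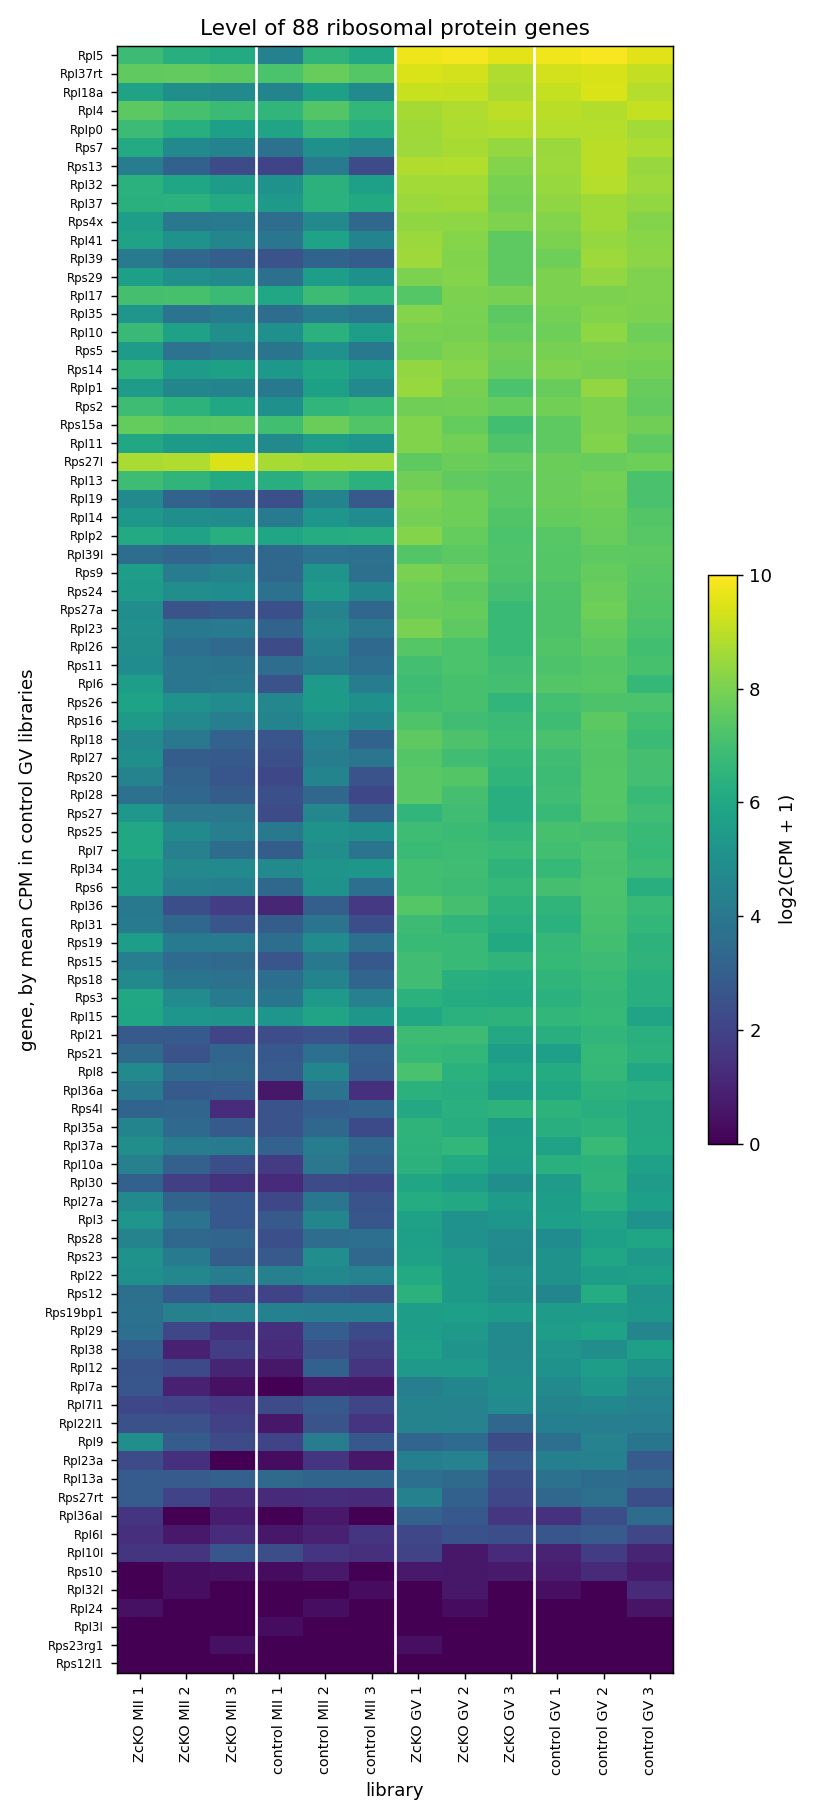
Level of each of 88 of the genes (rows) as log2(CPM + 1), in colour, in each of the 12 libraries (columns, in groups of 3). Most genes have a lower value in the MII columns than in the GV columns, while Rps27l and Rps15a are among the highest at MII.

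The windows around the annotated starts were searched for the letters of a TOP tract. RefSeq start windows (GRCm38.p6) were given for 67 of the 90 genes, and the 20 bases on either side of the annotated start were read on the gene's strand. A gene with several annotated starts was counted if any of its windows held the letters, so more starts gave more chances. Its run of C and T was the longest over its windows. The letters CTTTC, a short form of a TOP start, were found so in 21 of 67 members (31.3%), against 6.44% of 27025 genes. On the opposite strand they were in 4.48% of members, against 5.67% of genes. The longer CTTTCC, which contains CTTTC, was in 12 members (17.9%), against 2.3% of genes. The longest unbroken run of C and T had a median of 7 bases in members and 5 in all genes, and it was at least 8 bases long in 47.8% of members and 18.4% of genes. Windows of 6 members with unlike changes from GV to MII are shown with their longest run of C and T in capitals. The window shown is the first listed for each gene.
Rps27l (chr9:66946066-66946105, + strand): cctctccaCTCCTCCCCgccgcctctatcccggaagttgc
Rps27 (chr3:90213629-90213668, - strand): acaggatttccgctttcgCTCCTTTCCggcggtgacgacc
Rps15a (chr7:118116128-118116167, - strand): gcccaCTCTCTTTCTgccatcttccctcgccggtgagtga
Rpl39 (chrX:37085203-37085242, - strand): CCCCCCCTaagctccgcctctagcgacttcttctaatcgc
Rpl39l (chr16:10170208-10170247, + strand): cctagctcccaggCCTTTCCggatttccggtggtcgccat
Rps13 (chr7:116334171-116334210, - strand): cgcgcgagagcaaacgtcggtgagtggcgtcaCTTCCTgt
The longest run was 9 bases in Rps27l, which was not lower at MII with gene totals, and in Rps27, which was. The run was 10 bases in Rps15a, 8 in Rpl39, 7 in Rpl39l and 6 in Rps13. Only the run of Rps27 spans the annotated start, which follows the first 20 bases of the window. The runs of Rps27l, Rps15a, Rpl39 and Rpl39l lie before the start, and that of Rps13 lies after it. The run of Rpl39 begins at the edge of the window and may be longer. A match of letters describes the window and is not a measured start or a bound factor.

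The change from GV to MII was tested gene by gene in 1 fit over all 12 libraries, with library sizes from gene totals. In ZcKO oocytes 76 of the 84 tested members fell and 2 rose (edgeR quasi-likelihood test, adjusted p under 0.05), while 34% of the 11607 genes tested fell and 29.5% rose. In control oocytes 78 fell and 2 rose, against 33.8% and 30.1% of all genes. The median log2 fold change of the members was -2.45 in ZcKO (all genes -0.043) and -2.85 in control (all genes 0.0056). CPM of every MII library lay below that of every GV library for 75 members in ZcKO, against 37.7% of all genes tested, and for 77 in control, against 38.5%.

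Of the members 76 fell in both genotypes, 2 were higher at MII in both, among them Rps27l (lower with ERCC totals, below), and Rpl10l, Rpl13a, Rpl9 and Rps15a had no call in either with gene totals. Rpl3 and Rps23 fell in control and had no call in ZcKO. For Rpl3, near the peptidyl transferase centre, the log2 fold change was -1.05 in ZcKO (SE 0.55, edgeR, adjusted p = 0.112) and -1.88 in control (SE 0.56, adjusted p = 0.00983). For Rps23, of the decoding centre, it was -0.98 in ZcKO (SE 0.53, edgeR, adjusted p = 0.123) and -1.49 in control (SE 0.53, adjusted p = 0.0242). Without ZcKO MII 1 both fell in ZcKO, Rpl3 at -1.94 (edgeR, adjusted p = 0.00301) and Rps23 at -1.64 (adjusted p = 0.0134). The call in control was lost for Rpl3 without control MII 1 (edgeR, adjusted p = 0.0525), and for Rps23 without control MII 1 (adjusted p = 0.0935), control MII 3 (adjusted p = 0.0844) or control GV 2 (adjusted p = 0.0989). With ERCC totals both fell in both genotypes. Neither difference between the genotypes was called (interaction, edgeR, adjusted p = 0.899 for Rpl3 and 0.936 for Rps23).

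**Figure D3:**
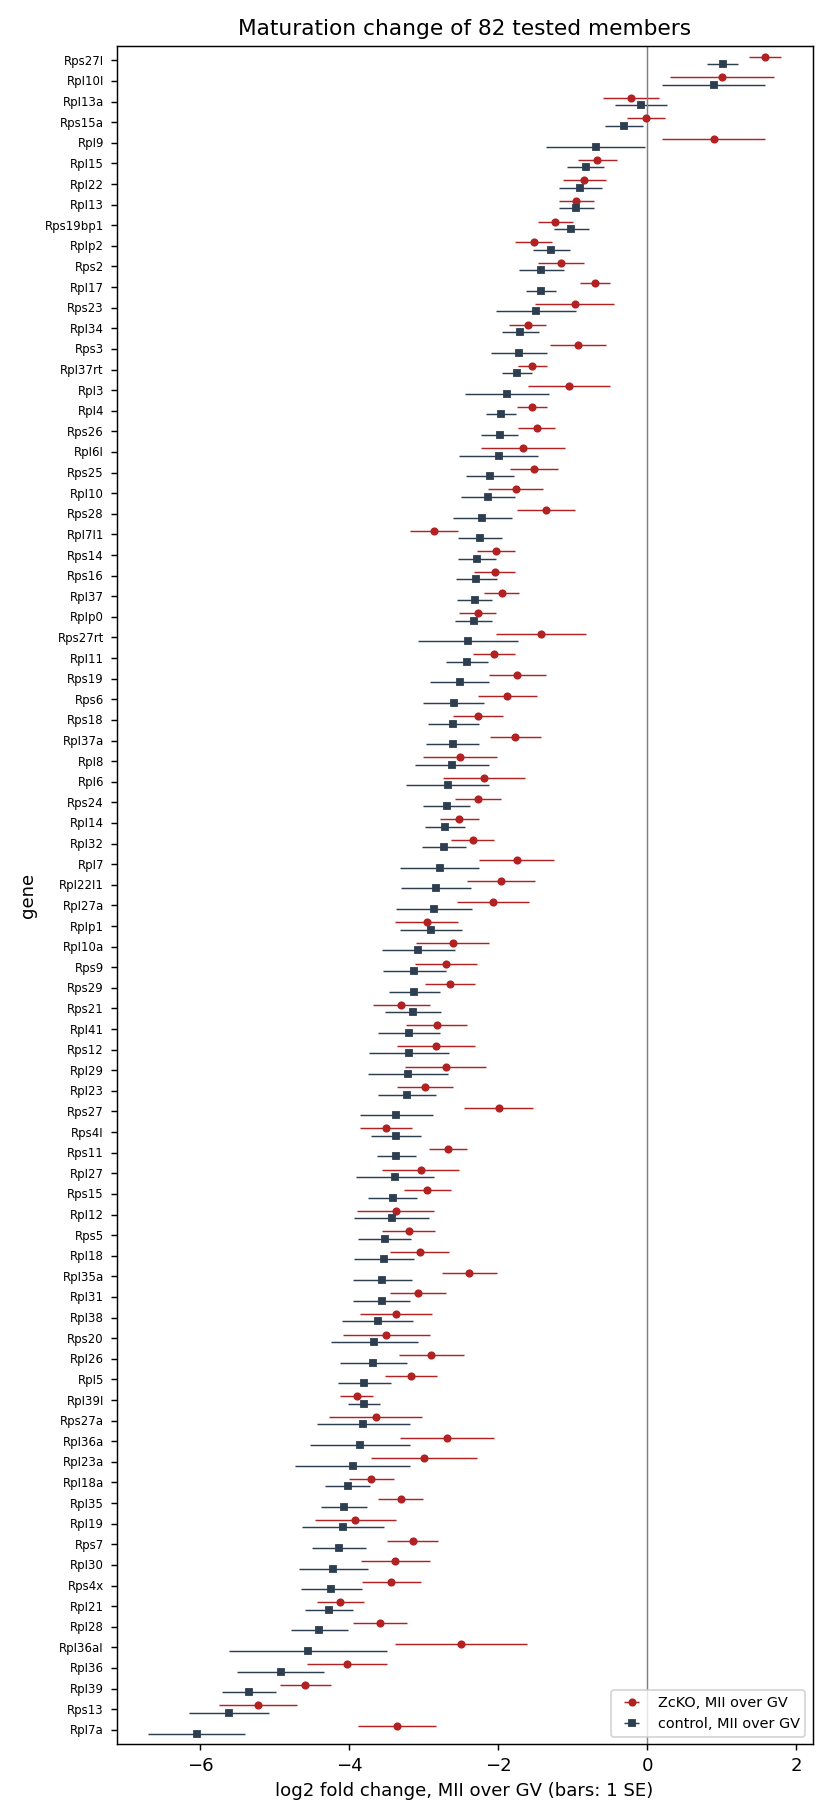
Log2 fold change of MII over GV for 82 tested members, in ZcKO and in control, with bars of 1 SE. Nearly all values lie below 0, the lowest at -6.05 (Rpl7a, control), and Rps27l lies above 0 in both genotypes with gene totals, though below 0 with ERCC totals, as does Rpl10l, which had no call (ERCC totals -1.5 in ZcKO and -0.89 in control).

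With ERCC totals as library sizes, the all-gene median shifted to -2.37 in ZcKO and -1.72 in control, and 83 members fell in ZcKO and 82 in control while none rose. Most genes fell under this scaling, with 88% of all genes tested called lower and 0.801% higher in ZcKO, and 70.1% and 0.56% in control. Relative to the median of all genes, the median of the members was -2.47 in ZcKO and -2.81 in control under that scaling, and -2.4 and -2.86 with gene totals.

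The 3 proteins of the P stalk, which recruits translation factors to the ribosome, all fell. Rplp0, the base of the stalk (chromosome 5, 115559467 to 115563727), had 116, 75.4 and 49.5 CPM in ZcKO MII libraries, against 381, 432 and 466 CPM in ZcKO GV libraries. It had 56.2, 108 and 78.2 CPM in control MII libraries, against 469, 469 and 392 CPM in control GV libraries. The stages did not overlap, and the log2 fold change was -2.28 in ZcKO (SE 0.25, edgeR, adjusted p = 3.0e-07) and -2.33 in control (SE 0.25, adjusted p = 2.1e-07). Rplp1, which pairs with RPLP2 on the stalk, stood at a log2 of -2.96 (SE 0.43) in ZcKO and -2.91 (SE 0.42) in control. Rplp2 changed least of the 3, by -1.52 (SE 0.25) in ZcKO and -1.29 (SE 0.25) in control, with 66.4 ± 12 CPM in ZcKO MII, 208 ± 71.2 in ZcKO GV, 67.6 ± 8.59 in control MII and 181 ± 19.8 in control GV (SD).

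In the large subunit 39 of 42 tested proteins fell in ZcKO and 40 in control, with median log2 values of -2.65 and -3.21. Rpl39, a short protein at the exit tunnel (chromosome X, 37082520 to 37085402), had 16.1, 8.78 and 7.13 CPM in ZcKO MII libraries, against 374, 274 and 182 CPM in ZcKO GV libraries. It had 4.91, 8.45 and 6.79 CPM in control MII libraries, against 219, 366 and 306 CPM in control GV libraries. The stages lay far apart in both genotypes, and the log2 fold change was -4.59 in ZcKO (SE 0.35, edgeR, adjusted p = 4.0e-09) and -5.35 in control (SE 0.36, adjusted p = 9.5e-10). Rpl36 stood at -4.03 (SE 0.54) in ZcKO and -4.93 (SE 0.58) in control, and Rpl21 at -4.12 (SE 0.32) and -4.28 (SE 0.32) on that scale. Rpl19, whose long helix reaches the small subunit, stood at -3.92 (SE 0.55) in ZcKO and -4.08 (SE 0.55) in control.

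Rpl7a, a large subunit protein, had the lowest fitted value of all members, at -6.05 in control (SE 0.65, edgeR, adjusted p = 2.9e-07). That value rests on 0, 2 and 2 counts in the control MII libraries, or 0, 0.604 and 0.543 CPM, against 26.7, 38.3 and 24.1 CPM in control GV libraries. In ZcKO it had 5.36, 0.908 and 0.356 CPM at MII, against 18.4, 23.1 and 31 CPM at GV (log2 -3.36, SE 0.52, edgeR, adjusted p = 2.2e-05). Pseudogenes of Rpl7a share its sequence, so its value is uncertain, and with their counts added the control value was -5.74.

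Other large subunit proteins lay nearer to 0 with gene totals. Rpl15 stood at -0.67 in ZcKO (SE 0.26, edgeR, adjusted p = 0.0295) and -0.83 in control (SE 0.25, adjusted p = 0.00817). Rpl22, which also binds other RNAs, stood at -0.84 (SE 0.29) in ZcKO and -0.90 (SE 0.29) in control, Rpl17, at the exit tunnel, at -0.70 (SE 0.20) and -1.43 (SE 0.20), and Rpl13 at -0.96 (SE 0.23) and -0.95 (SE 0.23). These 4 passed the test in both genotypes, and with ERCC totals they lay between -3.32 and -2.94 in ZcKO and between -3.13 and -2.48 in control. Rpl13a stood at -0.22 (SE 0.37) in ZcKO and -0.079 (SE 0.35) in control without a call, and fell with ERCC totals, at -2.65 (edgeR, adjusted p = 3.8e-06) and -1.8 (adjusted p = 0.00132). Rpl9, near the site where translation factors bind, had 29.9, 6.66 and 3.92 CPM in ZcKO MII libraries, against 8.71, 10.2 and 4 CPM in ZcKO GV libraries, and 3, 18.1 and 5.7 CPM in control MII libraries, against 11.5, 20.6 and 13.6 CPM in control GV libraries. Its stages overlapped in both genotypes, and its log2 values of 0.89 (SE 0.69) in ZcKO and -0.69 (SE 0.66) in control had no call with gene totals. Without ZcKO MII 1 the ZcKO value was -0.38, and without control MII 2 the control value was -1.64 (edgeR, adjusted p = 0.0463). With ERCC totals Rpl9 fell in both, at -1.38 in ZcKO (edgeR, adjusted p = 0.0103) and -2.36 in control (adjusted p = 1.7e-05).

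In the small subunit 25 of 28 tested proteins fell in ZcKO and 26 in control, with median log2 values of -2.27 and -2.91. Rps13 (chromosome 7, 116331505 to 116334195) had 18, 7.57 and 3.92 CPM in ZcKO MII libraries, against 445, 454 and 286 CPM in ZcKO GV libraries. It had 3, 16 and 4.07 CPM in control MII libraries, against 368, 492 and 351 CPM in control GV libraries. It was the member with the lowest log2 value in ZcKO, at -5.23 (SE 0.53, edgeR, adjusted p = 1.6e-06), and stood at -5.62 in control (SE 0.54, adjusted p = 8.7e-07).

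Rps15a, also of the small subunit, had no call in either genotype with gene totals. It had 197, 169 and 173 CPM in ZcKO MII libraries, against 273, 196 and 123 CPM in ZcKO GV libraries, and 123, 214 and 157 CPM in control MII libraries, against 185, 257 and 226 CPM in control GV libraries. Its stages overlapped, and with gene totals it stood at -0.016 in ZcKO (SE 0.26, edgeR, adjusted p = 0.963) and -0.32 in control (SE 0.26, adjusted p = 0.288). With ERCC totals it fell in both, at -2.49 in ZcKO (edgeR, adjusted p = 1.0e-08) and -2.05 in control (adjusted p = 2.2e-06).

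Rps27l was the member with the highest log2 value in both genotypes. The gene (chromosome 9, 66946086 to 66949516) had 423, 453 and 711 CPM in ZcKO MII libraries, against 183, 214 and 191 CPM in ZcKO GV libraries. It had 414, 378 and 371 CPM in control MII libraries, against 212, 202 and 224 CPM in control GV libraries. No MII library overlapped a GV library, as for 27.6% of all genes tested in ZcKO and 28.9% in control in that direction. With gene totals it rose by a log2 of 1.58 in ZcKO (SE 0.21, edgeR, adjusted p = 3.9e-06) and 1.01 in control (SE 0.21, adjusted p = 3.6e-04), while with ERCC totals it stood at -0.82 in ZcKO (edgeR, adjusted p = 0.0446) and -0.76 in control (adjusted p = 0.078).

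Its parent gene Rps27 (chromosome 3, 90212522 to 90213651), of the small subunit, had 39.5, 14.5 and 14.6 CPM in ZcKO MII libraries, against 95.5, 123 and 77.3 CPM in ZcKO GV libraries. It had 3.82, 23.6 and 8.15 CPM in control MII libraries, against 110, 158 and 122 CPM in control GV libraries. The stages did not overlap, and Rps27 fell, at -2.0 in ZcKO (SE 0.46, edgeR, adjusted p = 0.00176) and -3.37 in control (SE 0.49, adjusted p = 3.5e-05). Of the counts of this pair, Rps27l held 95.5% ± 3.5 in ZcKO MII and 66.8% ± 3.94 in ZcKO GV, and 97% ± 2.57 in control MII and 62.2% ± 5.32 in control GV (SD). Per kb, the level of Rps27l was 16-fold that of Rps27 in ZcKO MII and 1.38-fold in ZcKO GV, and 22.6-fold in control MII and 1.13-fold in control GV. A share within a pair does not depend on the library size, though it shows only unequal change. Reads that match both genes could have been split between them.

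The 3′ ends of the mRNAs were read because cytoplasmic polyadenylation in maturing oocytes acts through U-rich elements near the poly(A) signal, written here as DNA. The last 100 bases of the 3′ UTR in GENCODE M21 held TTTTAT in 6 of 80 members (7.5%), against 13.2% of 19556 genes, and TTTTAAT in 2 members (2.5%), against 4.75%. UTRs under 100 bases were searched whole, and those under 30 bases were left out. Many members have short ones, such as Rpl32 with 54 bases and Rps2 with 46. The shares are not corrected for the bases searched, so they do not show a lack of these letters in members. AATAAA, the poly(A) signal, was in 61 members (76.2%), against 63.5% of genes. On the opposite strand TTTTAT was in 36.3% of members and 30.3% of genes, TTTTAAT in 6.25% and 8.26%, and AATAAA in 2.5% and 13.0%. TTTTAT on the opposite strand reads ATAAAA on the gene's strand, which is present wherever AATAAA is followed by an A. Its rate there therefore counts poly(A) signals too and is no background for TTTTAT. Of the members searched, Rps27l was the single one with both TTTTAT and TTTTAAT, as were 0.987% of genes. Of the members with just one of them, Rpl27a, Rpl31, Rpl32, Rps2 and Rpl5 fell in both genotypes and Rpl13a had no call. Stretches of 30 bases (GRCm38) are shown for Rps27l, for Rps27, which holds neither, and for Rpl32 and Rps2, which hold TTTTAT and fell, with these letters in capitals.
Rps27l (chr9:66949434-66949463, + strand): attattgtttgaTTTTATaaagtctacaac
Rps27l (chr9:66949483-66949512, + strand): gtcagtttttcAATAAAgTTTTAATtatgg
Rps27 (chr3:90212673-90212702, - strand): gggaaccttcccAATAAAcacgttttggat
Rpl32 (chr6:115805525-115805554, - strand): cttgtgtgcatgTTTTATgtttaAATAAAa
Rps2 (chr17:24721884-24721913, + strand): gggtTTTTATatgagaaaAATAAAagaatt
Rpl32 stood at a log2 of -2.34 (SE 0.29) in ZcKO and -2.73 (SE 0.29) in control. In the stretches shown, TTTTAT lies close to AATAAA in Rpl32 and Rps2. In Rps27l it is TTTTAAT that lies close to AATAAA, and TTTTAT lies farther upstream. The part of these letters in the change from GV to MII was not tested.

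Most paralogs fell with their parent genes. Of the 14 paralogs and retrocopies 10 were tested, and in each genotype 8 fell, 1 rose (Rps27l, with gene totals) and 1 had no call (Rpl10l). Rpl39l, the paralog of Rpl39 known from testis, had 11.1, 8.48 and 10.3 CPM in ZcKO MII libraries, against 160, 180 and 152 CPM in ZcKO GV libraries, and 9, 13 and 12.5 CPM in control MII libraries, against 166, 183 and 179 CPM in control GV libraries. The stages did not overlap, and its adjusted p was the lowest of the members in both genotypes (edgeR, log2 -3.9, SE 0.22, adjusted p = 1.1e-10 in ZcKO, and log2 -3.8, SE 0.21, adjusted p = 1.0e-10 in control). Its share of the counts of Rpl39l and Rpl39 together was 49.7% ± 9.18 in ZcKO MII and 38.4% ± 7.86 in ZcKO GV, and 63.4% ± 2.42 in control MII and 37.8% ± 4.96 in control GV. Rpl37rt stood at -1.54 (SE 0.20) in ZcKO and -1.75 (SE 0.20) in control, with 186 ± 8.53 CPM in ZcKO MII, 593 ± 128 in ZcKO GV, 169 ± 31.1 in control MII and 619 ± 71.9 in control GV. As a retrocopy of Rpl37 it can take reads of that gene.

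**Figure D4:**
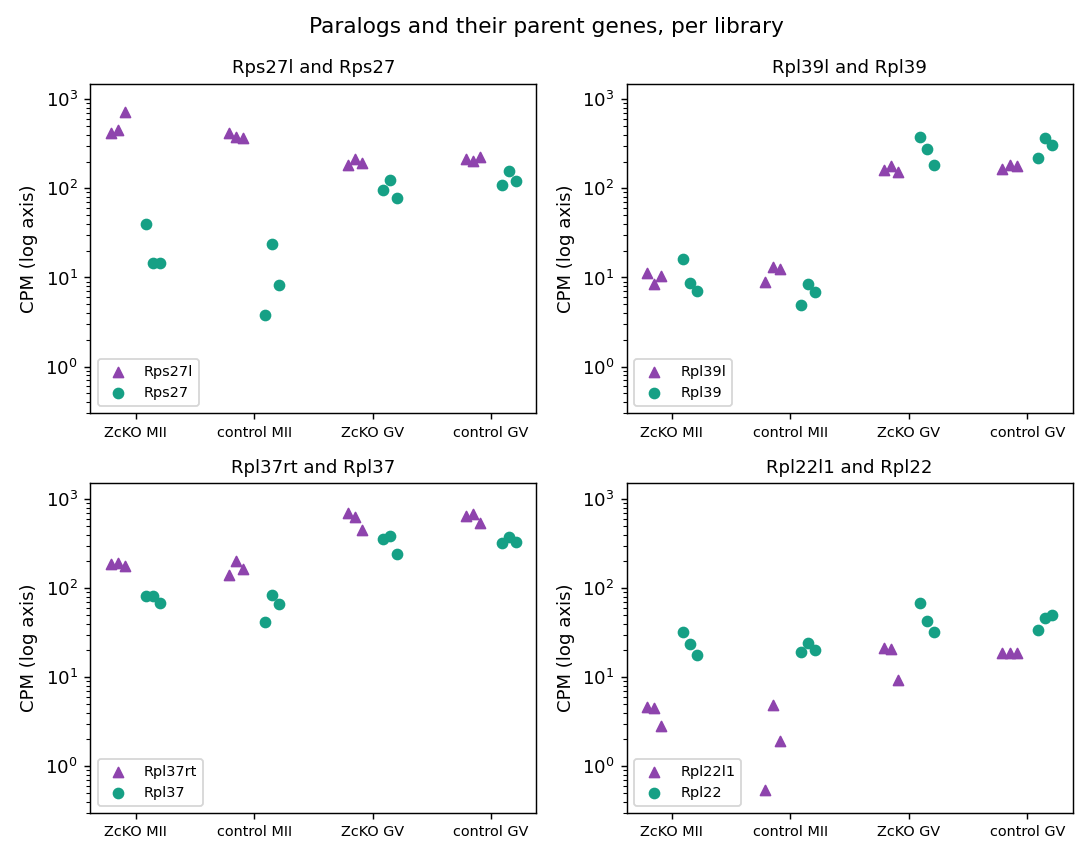
CPM per library (log axis) of 4 paralogs or retrocopies and their parent genes in the 4 groups. Rps27l stays above 370 CPM in all MII libraries while Rps27 is below 40 CPM there, whereas Rpl39l, Rpl37rt and Rpl22l1 are lower at MII together with Rpl39, Rpl37 and Rpl22.

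Rpl22l1, which cells can use in place of Rpl22, held 14.2% ± 1.78 of the pair's counts in ZcKO MII and 26.4% ± 5.56 in ZcKO GV, and 9.31% ± 7 in control MII and 30.5% ± 4.71 in control GV. It fell, at -1.96 in ZcKO (SE 0.45, edgeR, adjusted p = 9.6e-04) and -2.83 in control (SE 0.47, adjusted p = 4.0e-05), so its share was lower at MII where that of Rps27l was higher. Rps4l, a retrocopy of Rps4x, stood at -3.51 (SE 0.34) in ZcKO and -3.37 (SE 0.33) in control, and Rps4x at -3.44 (SE 0.40) and -4.24 (SE 0.41). Rpl7l1, whose protein acts in ribosome assembly, stood at -2.87 (SE 0.32) in ZcKO and -2.24 (SE 0.30) in control. Rps19bp1, the binding partner, stood at -1.24 (SE 0.24) in ZcKO and -1.02 (SE 0.23) in control, with 17.7 ± 4.38 CPM in ZcKO MII, 46.1 ± 3.14 in ZcKO GV, 19 ± 0.782 in control MII and 42.7 ± 3.93 in control GV. All 4 of these fell in both genotypes.

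The rest of the paralogs were low. Rpl10l, a retrogene known from testis that stands in for Rpl10, had at most 5.35 CPM in any library and stood at 1.0 in ZcKO (SE 0.70, edgeR, adjusted p = 0.219) and 0.89 in control (SE 0.69, adjusted p = 0.265). Rps27rt, a retrocopy of Rps27, stood at -1.43 in ZcKO (SE 0.60, edgeR, adjusted p = 0.047) and -2.4 in control (SE 0.67, adjusted p = 0.00449). It had 20.2, 7.72 and 3.33 CPM in ZcKO GV libraries, and without the first of them the ZcKO value was -0.49 (edgeR, adjusted p = 0.488). Its call was also lost without ZcKO MII 2 (adjusted p = 0.126) or ZcKO MII 3 (adjusted p = 0.164), by edgeR. Rpl6l, a retrocopy of Rpl6, fell, at -1.67 in ZcKO (SE 0.56, edgeR, adjusted p = 0.0151, or 0.0802 without ZcKO MII 2) and -2.0 in control (SE 0.53, adjusted p = 0.0031). Rpl36al, the paralog of Rpl36a, had 2 counts in all control MII libraries together and 71 in control GV libraries (5, 16 and 50). The ratio per gene count was 0.0302 (95% exact interval 0.00359 to 0.113, counting error only). That interval leaves out the spread between libraries and is too narrow. In ZcKO it stood at -2.5 (SE 0.89, edgeR, adjusted p = 0.0201), and the call was lost without ZcKO GV 1 (adjusted p = 0.0743), ZcKO MII 2 (adjusted p = 0.0875) or ZcKO MII 3 (adjusted p = 0.0533).

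Across the 84 tested members the log2 changes of maturation in ZcKO and in control had a Pearson r of 0.93 and a Spearman rho of 0.93. The comparisons in ZcKO and control share no library, though both come from 1 fit and share the scaling, and members with near-identical copies are not independent. Across members the change in ZcKO had an r of -0.049 with transcript length and -0.14 with the length of the 3′ UTR (81 members each), and of -0.28 with the log2 level per kb in control GV libraries (84 members).

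The change of maturation was smaller in size in ZcKO than in control for most members with gene totals, but no difference was called. The interaction, the log2 change in ZcKO minus that in control, was above 0 for 74 of 84 members, with a median of 0.42 (all genes -0.0067). Of the 84 members 0 passed in either direction (edgeR, smallest adjusted p = 0.875), while 0.00862% of all genes were called higher and 0% lower, and DESeq2 also called 0 members. At an unadjusted p under 0.05 there were 4 members above 0 and 0 below, against 2.27% and 2.96% of all genes. These were Rpl7a at 2.7 (SE 0.98), Rpl35a at 1.17 (SE 0.53), Rps7 at 0.99 (SE 0.46) and Rpl17 at 0.73 (SE 0.28). Under ERCC scaling the median of the members turned to -0.28, against -0.61 for all genes, and leaving out 1 library with gene totals gave medians from 0.017 to 0.89.

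At MII no member differed between ZcKO and control by a call, though most stood higher in ZcKO. Of the 77 tested members 0 passed (edgeR, smallest adjusted p = 0.534), as did 0% of 9677 genes, and at an unadjusted p under 0.05 there were 2 higher and 0 lower, against 3.57% and 5.45% of all genes. These 2 were Rpl37a at 0.84 (SE 0.35) and Rpl17 at 0.46 (SE 0.20), and DESeq2 called 0 members. The log2 value was above 0 for 63 of 77 members, with a median of 0.33 (all genes 0.018). Rpl36 at 1.04 (SE 0.76) and Rpl35a at 1.04 (SE 0.49) were among the highest, and the lowest were Rpl7l1 at -0.60 (SE 0.45), Rpl13a at -0.44 (SE 0.32) and Rpl39l at -0.23 (SE 0.30). The P stalk proteins stood at -0.039 (SE 0.29) for Rplp0, -0.074 (SE 0.40) for Rplp1 and -0.056 (SE 0.20) for Rplp2.

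These values followed single libraries. ZcKO MII 1 had the highest CPM of all MII libraries for 63 of the 84 members, and control MII 1 the lowest for 54. Without ZcKO MII 1 the median over the members was -0.064, without control MII 2 it was 0.73, and without control MII 1 it was 0.11. Rpl36 stood at -0.025 without ZcKO MII 1. Summed CPM of the cumulus and granulosa markers other than Serpine2 was 1251, 394 and 248 in ZcKO MII libraries, against 271, 518 and 344 in control MII libraries. Within each genotype this sum put the libraries in the same order as the ribosomal protein share did, and its part in the result was not tested. Between replicates the members had a median SD of log2(CPM + 1) of 0.68 in ZcKO MII and 0.62 in control MII, against 0.28 and 0.31 over all genes tested. At GV it was 0.36 in ZcKO and 0.26 in control, against 0.32 and 0.25 over all genes.

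CPM did not overlap between ZcKO MII and control MII for 1 member in each direction. Rps27l was higher in every ZcKO library (423, 453 and 711 CPM, against 414, 378 and 371 CPM in control; log2 0.42, SE 0.21, edgeR, adjusted p = 0.56), as were 8.19% of all genes tested. Rpl13a was lower in every ZcKO library (6.51, 6.36 and 7.49 CPM, against 10.1, 8.45 and 8.42 CPM in control; edgeR, adjusted p = 0.661), as were 7.57% of genes. For the members 1 of 77 is below that background in both directions.

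At GV the members stood close to control. Of the 83 tested 0 passed (edgeR, smallest adjusted p = 1.0), while 0.0183% of 10911 genes were called higher and 0.0642% lower, and at an unadjusted p under 0.05 there were 0 higher and 1 lower, against 0.953% and 1.25% of genes. DESeq2 called 0 members. The median log2 value was -0.12 (all genes 0.012), with 61 of 83 members below 0. The member with an unadjusted p under 0.05 was Rpl9, with 8.71, 10.2 and 4 CPM in ZcKO GV libraries, against 11.5, 20.6 and 13.6 CPM in control GV libraries (log2 -1.03, SE 0.38, edgeR, adjusted p = 1.0). It was lower in every ZcKO library, as were 2.3% of genes, and 0 members were higher in every ZcKO library, against 4.96% of genes. Rps27 at -0.45 (SE 0.23) and Rpl30 at -0.45 (SE 0.33) were next, and the highest were Rps27rt at 0.30 (SE 0.57), Rps12 at 0.24 (SE 0.44) and Rpl8 at 0.23 (SE 0.32). Without ZcKO GV 1 these 3 were below 0, at -0.64 for Rps27rt, -0.33 for Rps12 and -0.22 for Rpl8.

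**Figure D5:**
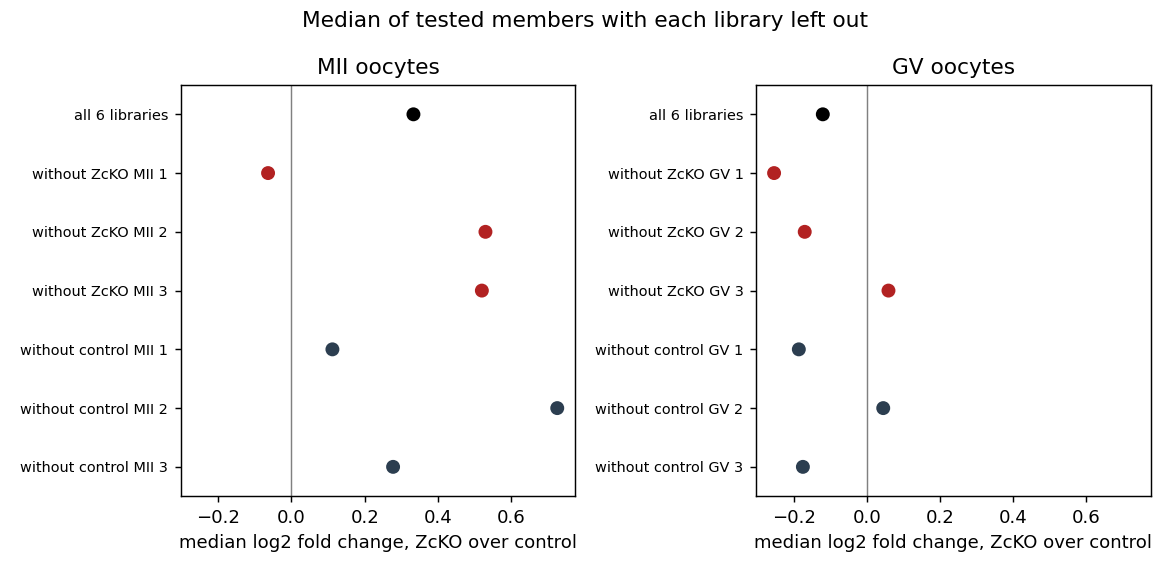
Median log2 fold change of ZcKO over control over the tested members, with all 6 libraries of a stage and with each left out in turn, at MII and at GV. The MII median runs from -0.064 without ZcKO MII 1 to 0.73 without control MII 2, and the GV median from -0.25 without ZcKO GV 1 to 0.059 without ZcKO GV 3.

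At GV as well a few libraries set the order. ZcKO GV 1 had the highest CPM for 30 of the 84 members and control GV 2 for 40, and ZcKO GV 3 had the lowest for 60. A single gene model that overlaps ribosomal RNA held 11.1%, 4.45% and 1.17% of the gene counts of ZcKO GV libraries, against 2.8%, 6.57% and 3.83% of those of control GV libraries. Without ZcKO GV 3 the median was 0.059 and without control GV 2 it was 0.045. Within ZcKO the share of that model put the libraries in the same order as the ribosomal protein share did, within control only the highest library was the same, and its part in the result was not tested. With ERCC totals the median of the members was 0.40, against 0.46 for all genes.

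Other mRNAs known or proposed to begin with a TOP tract, a list chosen with earlier results of these data known, fell in part. Of 20 tested, 11 fell and 5 rose in each genotype with gene totals, where 34% of all genes fell and 29.5% rose in ZcKO and 33.8% and 30.1% in control, so the share that rose was near that of all genes. Fau, which encodes the small subunit protein eS30, stood at a log2 of -2.45 (SE 0.25) in ZcKO and -2.61 (SE 0.25) in control, and Rpsa, another small subunit protein, at -2.83 (SE 0.64) and -2.74 (SE 0.63). The elongation factor subunit Eef1d stood at -4.54 (SE 0.26) in ZcKO and -4.18 (SE 0.25) in control, and Naca, of the nascent polypeptide-associated complex, at -3.46 (SE 0.21) and -3.86 (SE 0.22). Npm1, the nucleolar protein nucleophosmin, was higher at MII with gene totals, at 0.79 (SE 0.17) in ZcKO and 0.67 (SE 0.17) in control, and lower with ERCC totals, at -1.6 and -1.06. With ERCC totals 19 fell and 1 rose in ZcKO, and 16 fell and 1 rose in control, while 88% and 70.1% of all genes fell. The gene that rose under both was Vim, a filament gene also expressed by cumulus cells, with 17.4 ± 15.5 CPM in ZcKO MII, 0.207 ± 0.359 in ZcKO GV, 10.7 ± 6.29 in control MII and 0.494 ± 0.531 in control GV.

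Of 39 tested factors that build ribosomes, 17 fell and 14 rose in ZcKO, and 16 fell and 12 rose in control, with gene totals. These shares were near those of all genes, of which 34% fell and 29.5% rose in ZcKO and 33.8% and 30.1% in control. Emg1, a methyltransferase of the small subunit RNA, fell, at -4.5 (SE 0.21) in ZcKO and -4.56 (SE 0.21) in control, as did Eif6, which keeps the subunits apart, at -4.25 (SE 0.20) and -3.18 (SE 0.19). Dkc1, the pseudouridine synthase dyskerin, was higher at MII with gene totals, at 1.16 (SE 0.18) in ZcKO and 1.53 (SE 0.18) in control, and lower with ERCC totals, at -1.22 and -0.25. With ERCC totals 0 of the 39 rose, and 39 fell in ZcKO and 29 in control, where 88% and 70.1% of all genes fell.

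Of 16 regulators of TOP mRNAs tested, 6 rose and 2 fell in ZcKO, and 5 rose and 2 fell in control, with gene totals, whereas with ERCC totals 0 rose, 13 fell in ZcKO and 11 fell in control. Of all genes 29.5% rose and 34% fell in ZcKO and 30.1% and 33.8% in control with gene totals, and 88% and 70.1% fell with ERCC totals, so the shares that rose with gene totals and fell with ERCC totals were near those of all genes. Tsc2, whose product restrains mTORC1, fell, at -3.37 (SE 0.33) in ZcKO and -2.79 (SE 0.32) in control. Larp4, a poly(A)-binding La-related protein, was higher at MII with gene totals, at 1.89 (SE 0.19) in ZcKO and 1.7 (SE 0.18) in control, against -0.48 and 0.021 with ERCC totals. Rheb, the GTPase that activates mTORC1, was higher with gene totals, at 1.44 (SE 0.20) in ZcKO and 1.5 (SE 0.20) in control, against -0.83 and -0.28 with ERCC totals. Between genotypes at either stage and in the interaction, edgeR called 0 genes of these 3 lists.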

How the data were processed

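The deposited table holds whole-number read counts per gene symbol, made by the authors and not normalized. The tools fastp, HISAT2 and featureCounts and the build mm10 are listed, per the submitters' processing notes, without versions. Which annotation release and strand setting were used, and how reads with several matches were treated, is not given in the sources used here. No molecular identifiers were used, so intervals cover counting error only. Another 6 columns of the table matched no sample label and were not used.

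The test of the counts was that of edgeR 4.0.16, run in R 4.3.3 (filterByExpr, TMM, robust quasi-likelihood fit, Benjamini-Hochberg adjustment over all genes tested), between genotypes on the 6 libraries of a stage and for maturation and the interaction on all 12. The procedure was tested on simulated data. No replicate pair was as close as sampling noise alone (smallest chi-square per degree of freedom 4.97). Nothing says that libraries came from separate animals, so p-values measure the spread between libraries. CPM is scaled to gene counts without spike-ins, and length is that of the lowest-numbered protein-coding transcript. For Rpl37rt, Rps4l, Rpl6l, Rpl32l and Rps12l1, which have no such transcript, it is that of all exon bases. Alternatives were DESeq2 1.42.0, no filter, ERCC totals, added pseudogene counts (306 symbols), other sets of libraries, a replicate block and leaving out each library.

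The members and lists were chosen with earlier results of these data known. Named were the P stalk, the paralogs, Rps19bp1, the 5 highest and 5 lowest called members per comparison (the 3 highest and 3 lowest where fewer than 3 were called), the 3 highest members and 3 lowest canonical ones per kb, and up to 5 called genes per other list. Another 2 members count in every total and test but are not reported here one by one. The other members described (Rpl3, Rpl5, Rpl9, Rpl17, Rpl31, Rpl27a, Rpl37a, Rps2, Rps4x, Rps7, Rps15a, Rps23, Rps27 and Rps29 among them) were chosen after their values were seen.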

Additional observations from a re-analysis of the deposited data

How the results depend on the processing

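The calls between genotypes and in the interaction stayed at 0 under every alternative run. With library sizes from ERCC totals, the median log2 value of the members between genotypes was 0.18 at MII (all genes -0.15) and 0.40 at GV. On that scaling it was -4.84 for maturation in ZcKO, -4.53 for maturation in control and -0.28 for the interaction. Also with ERCC totals, Rps27l stood at -0.82 in ZcKO and -0.76 in control, Rpl10l at -1.5 and -0.89 and, in ZcKO, Rpl9 at -1.38 for maturation, and Rpl30 at 0.092 between genotypes at GV. Leaving out each library gave medians from -0.064 to 0.73 at MII, from -0.25 to 0.059 at GV, from -2.93 to -2.22 for maturation in ZcKO, from -3.41 to -2.54 for maturation in control and from 0.017 to 0.89 for the interaction, and 72 to 80 and 77 to 81 called members for maturation in ZcKO and in control. Without both ZcKO MII 1 and control MII 2, a choice made after seeing the data, the maturation median in control was -3.41, and Rpl9 stood at -0.37 in ZcKO and Rpl13a at 0.014 in control. Among uncalled members named at their extremes, leaving out each library gave -0.025 to 2.05 for Rpl36 at MII (lowest without ZcKO MII 1), and at GV -0.69 to 0.022 for Rpl30 (highest without control GV 2), -0.22 to 0.51 for Rpl8, -0.33 to 0.85 for Rps12 and -0.64 to 0.73 for Rps27rt (each lowest without ZcKO GV 1). Rps12 also turned to -0.066 without control GV 1 and Rps27rt to -0.042 without control GV 3. For maturation, leaving out each library gave -0.38 to 1.31 for Rpl9, -0.29 to 0.33 for Rps15a and -0.56 to 0.068 for Rpl13a in ZcKO and -0.23 to 0.0094 for Rpl13a in control, none of the 4 called with all libraries, and with the replicate block Rps15a stood at 0.016 in ZcKO. The values of members named for maturation by rank, stalk, paralogy or lack of a call, and of those named between genotypes at the extremes, were compared under all alternatives: 692 kept direction and side of the threshold, 13 lost their call, 16 gained one and 22 changed sign. Beside the losses given with the results, Rps27rt in ZcKO lost its call with DESeq2 (adjusted p = 0.0625) and with the 6 libraries of its genotype alone (edgeR, adjusted p = 0.0813). The causes were not tested.

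No pairing by replicate number was seen: deviations of same-numbered libraries correlated between -0.24 and 0.22. With 3 libraries a group these values cannot exclude a pairing. With the replicate block 0 members were called at MII, 0 at GV, 79 for maturation in ZcKO, 80 in control and 0 for the interaction. The ratio to ERCC counts has another unit than the share of gene counts and stands with the results. Leaving the model of ribosomal RNA out of the total, in place of a list of ribosomal RNA genes that matched no gene, gave mean shares of 0.336% ± 0.0773 in ZcKO MII, 0.274% ± 0.0787 in control MII, 1.42% ± 0.307 in ZcKO GV and 1.45% ± 0.22 in control GV. Where members are near 0 counts at MII, a fold change rests on single counts.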
